A study of Mus musculus with 12 samples.

Results

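The genes described here are the immunoglobulin variable (V) genes of mouse intestine, 139 of the 47643 genes in the deposited count table. They were chosen by symbol, starting with Ighv, Igkv or Iglv, and by a mean expected count of at least 10 over 12 libraries. The 139 comprise 70 heavy chain genes (Ighv), 66 kappa light chain genes (Igkv) and 3 lambda light chain genes (Iglv), out of 348 V genes and pseudogenes in the table. Of the other 209, 130 are annotated pseudogenes and 119 had no count in any library. The count minimum fixed which genes are included and supports nothing else: Igkv4-80 (mean count 10.4) and Ighv1-77 (10.8) lay just inside it, and Ighv7-1 (9.42) and Ighv1-63 (9.18) just outside. In 105 of the 139 the mean count reached 10 in each of the 4 groups, whereas 7 passed the minimum through 1 group alone: Ighv2-4, Igkv12-38 and Igkv4-51 through WT chow, Igkv1-99 and Ighv9-1 through KO chow, and Ighv2-6 and Igkv4-74 through WT HFD. The minimum admitted these 7 through the group in which they were high, so their differences between groups are given as descriptions and support nothing. Another 9 reached a mean count of 10 in 2 groups only. Ighv1-77 did so in KO HFD and WT HFD, so its differences between diets are descriptions as well. The reverse held for Igkv1-88 and Igkv4-58, which were low in both HFD groups. Igkv1-88 had 22 reads in KO HFD against 114 in KO chow, and Igkv4-58 20 in WT HFD against 104 in WT chow. Their falls with HFD, though called, are descriptions too.

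Each developing B cell joins one V segment to a D and a J segment (heavy chain) or to a J segment (light chain), and its descendants carry that choice unless it is later replaced. In the gut most antibody RNA comes from plasma cells of the lamina propria, which secrete IgA, and a plasma cell clone can be large. The share of V RNA that one V gene takes therefore reflects both how often the gene was joined and how far the clones using it have expanded, and bulk RNA does not join a heavy chain to its light chain partner.

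Bulk RNA-seq was made from intestine of male C57BL/6 mice, 7-8 weeks old, in 4 groups of 3 libraries: KO HFD (PparaΔIE, 60% high-fat diet), WT HFD (Pparafl/fl, 60% high-fat diet), KO chow (PparaΔIE, chow) and WT chow (Pparafl/fl, chow), each diet given for 10 days. Ppara encodes a nuclear receptor for fatty acids; both genotypes carry modified alleles, flanked by recombinase sites in Pparafl/fl, and the name PparaΔIE is the usual notation for loss in the intestinal epithelium, so that B cells are not the cells named as targeted. The sources used here name no intestinal segment, recombinase or deleted exon. Nor do they tie each library to a mouse of its own, so p-values measure the spread between these libraries, which may be technical. Because RNA was sequenced in bulk, fewer B lineage cells and less RNA per cell cannot be told apart.

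The V exons carry most of the sequence by which reads are assigned to one V gene. Below are the last 60 bases of the V exon of 8 genes: the most used gene of each chain (Iglv1, Ighv1-26, Igkv6-23), the gene that led 1 KO HFD library (Ighv1-15), a heavy and a kappa gene that stood out together in 1 WT HFD library (Ighv14-2, Igkv9-124), and a kappa and a heavy gene prominent in WT chow (Igkv12-38, Ighv2-4). Sequences are from GENCODE vM21 transcripts on GRCm38 (mm10), 5′ to 3′ on the coding strand, which is the minus strand for all 8. Capitals mark the last in-frame cysteine codon of the exon, which opens the third complementarity-determining region.

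Iglv1, chr16:19085017-19085076: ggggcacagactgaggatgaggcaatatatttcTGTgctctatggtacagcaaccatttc
Ighv1-26, chr12:114788372-114788431: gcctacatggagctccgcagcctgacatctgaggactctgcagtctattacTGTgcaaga
Igkv6-23, chr6:70260409-70260468: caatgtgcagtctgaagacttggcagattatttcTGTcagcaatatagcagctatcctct
Ighv1-15, chr12:114657353-114657412: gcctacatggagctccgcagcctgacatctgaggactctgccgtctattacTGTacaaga
Ighv14-2, chr12:113994469-113994528: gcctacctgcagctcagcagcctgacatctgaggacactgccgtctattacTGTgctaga
Igkv9-124, chr6:67942074-67942133: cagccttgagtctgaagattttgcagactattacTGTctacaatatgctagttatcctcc
Igkv12-38, chr6:69943186-69943245: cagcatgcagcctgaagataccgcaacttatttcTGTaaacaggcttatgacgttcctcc
Ighv2-4, chr12:113653291-113653350: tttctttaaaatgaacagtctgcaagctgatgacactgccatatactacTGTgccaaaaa

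In all 139 genes the V exon holds an in-frame cysteine codon. The last one is TGT in 115 and TGC in 24, and in 138 it lies in the last 30 bases. In Ighv3-8, the longest exon, it lies 1 base from the end. Whether it opens the third complementarity-determining region there was not checked. The V exons are 294 to 351 bases long (median 305), so shares of counts compare genes of nearly equal length. Of the 70 heavy chain exons, 34 (48.6%) end in the same 9 bases, tgtgcaaga, and together those 34 genes took 28.0% of V counts on average.

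Many V genes have close copies, and the authors' estimates divide shared reads among them. Of the 139, 68 have another of the 139 at 95% identity or more over the V exon, and their counts were not whole numbers in a median of 9 of 12 libraries, against 0 of 12 for the 71 without such a copy. Iglv1 and Iglv2 are 97.0% identical, Ighv1-26 and Ighv1-18 97.4%, and Ighv2-4 and Ighv2-2 98.0%. Ighv1-71 and Ighv1-62-2, named after their values were seen, have identical V exons, so that the division between them is arbitrary. Igkv12-38 and Igkv1-99 have no copy above 85.6% among the 139, and their counts were whole in every library.

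Library totals ran from 33621040 to 53959405 expected counts, and V counts from 8374 to 18241, so that 1% of V usage stood for 83.7 to 182 counts. Usage is the percentage of a library's V counts held by one gene. Ppara itself averaged 13.3 ± 3.46 CPM (counts scaled by library size) in KO HFD and 36.6 ± 2.79 CPM in WT HFD (log2 fold change -1.46, SE 0.21, edgeR adjusted p = 0.031), and 12.3 ± 3.64 CPM in KO chow and 19.7 ± 2.01 CPM in WT chow (SD, n = 3 each; -0.68, adjusted p = 0.25). Of 11 tested constant region genes edgeR called 0 in each of the 5 comparisons made, with at most 3 at an unadjusted p under 0.05 (KO against WT on HFD), and DESeq2 called 2 with HFD in WT.

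KO chow 3 and WT chow 1 stood apart in kind. In KO chow 3 the usage of 66.4% of 137 V genes lay between KO chow 1 and KO chow 2, and a mix of 56.9% KO chow 1 and 43.1% KO chow 2 left 6.27% of usage unaccounted for, although those libraries differed from each other in 31.7% of usage. In WT chow 1, 52.5% of 139 V genes lay between WT chow 2 and WT chow 3, and a mix of 46.7% and 53.3% left 5.27%, with 16.4% between those libraries. The same calculation for the HFD libraries left 23.8% to 33.0%. After the mix, the chi-square per degree of freedom was 1.59 for KO chow 3 and 1.99 for WT chow 1, where counting error alone gives about 1, against 20.5 to 165 for the HFD libraries. The other 4 chow libraries also gave low values, 1.51 to 2.04, but only with 1 weight between -103% and -54.7% and the other between 155% and 203%, so that the place between the others, not the chi-square, sets KO chow 3 and WT chow 1 apart. The labels give these as separate samples and they were used as such. If either was not independent of the other libraries of its group, the SDs of that chow group, given with n = 3, and the spread estimated in the fit would be too small, and the labels do not settle this. Counts of calls, counts of groups that do not overlap and likeness are also given without both; groups that do not overlap cannot come to overlap when a library is left out.

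**Figure D1:**
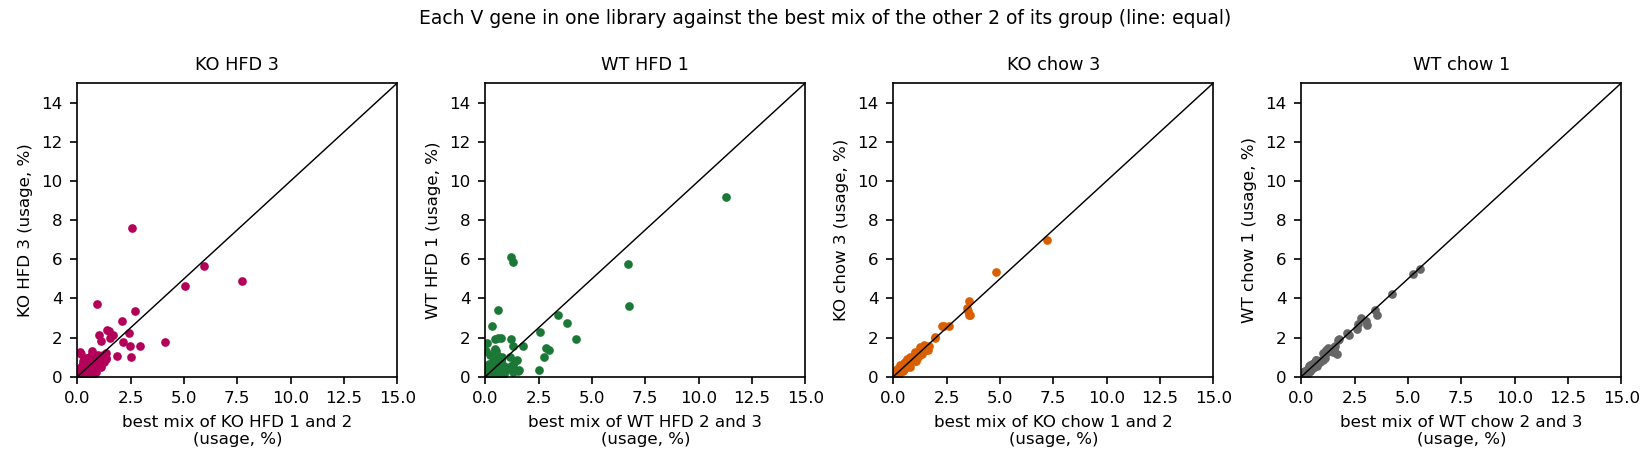
Usage (% of V counts) of each V gene in KO HFD 3, WT HFD 1, KO chow 3 and WT chow 1 (y axes) against the best-fitting mix of the other libraries of the same group (x axes); points are V genes and the line marks equal values. KO chow 3 and WT chow 1 follow the line, with 6.27% and 5.27% of usage off it, whereas genes of KO HFD 3 and WT HFD 1 scatter to both sides.

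The summed level of the 139 genes was 397, 274 and 256 CPM in KO HFD, 453, 383 and 445 CPM in WT HFD, 378, 247 and 284 CPM in KO chow and 350, 368 and 340 CPM in WT chow. The group means were 309 ± 76.6, 427 ± 38.5, 303 ± 67.6 and 352 ± 14.3 CPM in the same order (SD, n = 3 each). KO HFD overlapped WT HFD, and KO chow overlapped WT chow, while all 3 WT HFD libraries lay above all 3 WT chow libraries. No test was made on this sum or on the other summary measures of the V genes. Heavy chain genes took 43.4% to 47.4% of V counts in every library.

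Lambda was the chain whose share varied most. Lambda V genes took 26.4%, 11.9% and 10.0% of light chain V counts in KO HFD, 17.8%, 17.9% and 22.9% in WT HFD, 15.1%, 14.0% and 13.9% in KO chow and 8.24%, 8.56% and 8.40% in WT chow. All WT chow libraries lay below every other library, and KO HFD ran over a range that holds both WT HFD and KO chow.

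Iglv1, which encodes the main lambda V domain of the mouse, made up 82.0% (KO chow 2) to 98.1% (WT HFD 3) of the lambda counts of a library. Its usage was 14.0% (95% Wilson interval 13.4% to 14.6%), 5.94% and 4.90% in KO HFD, 9.19%, 9.58% and 12.5% in WT HFD, 7.99%, 6.16% and 6.97% in KO chow and 4.23%, 4.27% and 4.20% in WT chow. Intervals of this kind cover counting error only. No fold change of Iglv1 passed the test: its level averaged 44.7 ± 9.82 CPM in WT HFD and 14.9 ± 0.747 CPM in WT chow (log2 fold change 1.58, SE 0.54, edgeR adjusted p = 0.090), and 21.7 ± 7.67 CPM in KO chow (0.54, SE 0.54 against WT chow, adjusted p = 0.70). Iglc1, the constant region gene joined to Iglv1, had its highest levels in the same libraries, 54.7 CPM in KO HFD 1 and 49.0, 38.2 and 54.8 CPM in WT HFD, against 15.1 to 16.9 CPM in WT chow. Iglv2 stayed between 0.0553% and 1.16%, highest in KO chow 2, and Iglv3 between 0.126% and 0.411%.

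To describe how evenly the genes of a chain were used, an effective number was computed, the number of equally used genes that would give the same Shannon entropy. For kappa it was 34.5, 33.6 and 35.1 in KO HFD, 31.8, 27.8 and 26.5 in WT HFD, 35.4, 33.5 and 36.0 in KO chow and 38.3, 36.1 and 35.9 in WT chow. For the heavy chain it was 32.5, 40.7 and 32.0 in KO HFD, 29.3, 29.9 and 31.1 in WT HFD, 34.2, 37.8 and 40.4 in KO chow and 37.2, 37.5 and 33.5 in WT chow. On both chains every WT HFD library lay below every library of the other groups. On the heavy chain this changed with the count minimum: with a minimum mean count of 50, the heavy effective number averaged 19.6 in KO HFD and 19.6 in WT HFD. The 10 most used genes of a library took 40.6% of V counts on average in KO HFD, 47.4% in WT HFD, 37.9% in KO chow and 36.1% in WT chow. Thinning each library to the lowest V count of the chain moved the group means of the effective numbers by less than 1 SD.

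**Figure D2:**
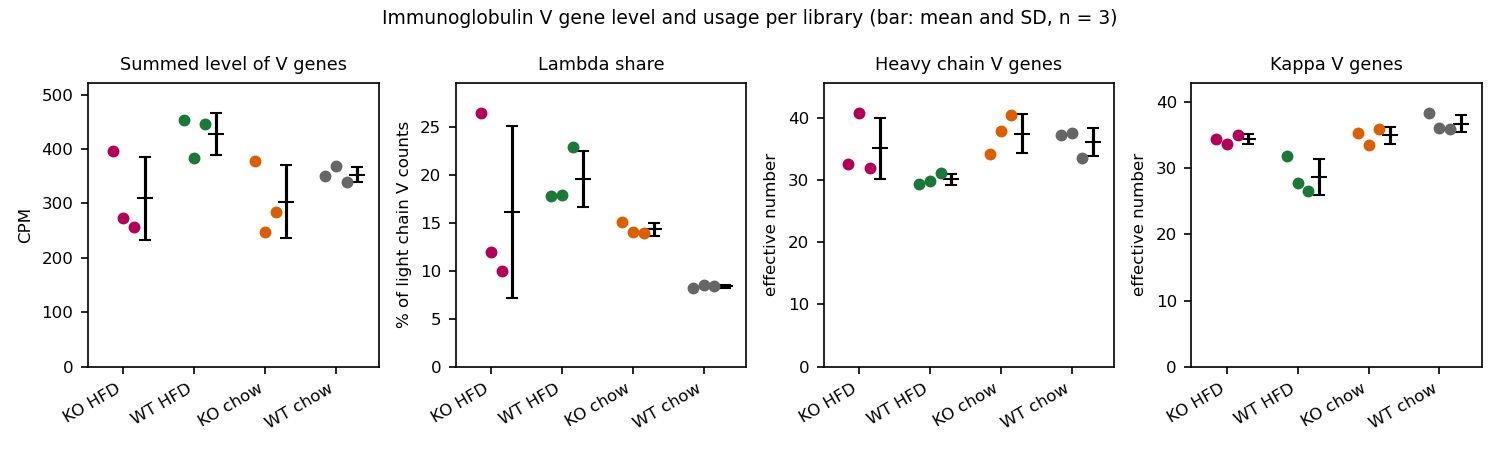
Summed V level (CPM), lambda share (% of light chain V counts) and effective number of heavy chain and kappa V genes in each library (points), with group means and SD (bars, n = 3). WT HFD holds the lowest effective numbers on both chains (29.3 to 31.1 heavy, 26.5 to 31.8 kappa), though with a minimum mean count of 50 the heavy mean is 19.6 in both HFD groups, and WT chow the lowest lambda shares (8.24% to 8.56%).

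Usage was spread over many genes. The median V gene took 0.401% of V counts on average over the libraries, and 29 genes, 12 heavy, 16 kappa and Iglv1, took more than 1% each and 62.7% together. Iglv1 averaged 7.49%, Igkv6-23 5.23%, Ighv1-26 5.19% and Igkv10-96 3.28%. The other most used heavy chain genes were Ighv1-39 (2.50%), Ighv1-55 and Ighv1-15 (2.45% each), Ighv1-19 (2.39%) and Ighv1-72 (2.31%), and the other most used kappa genes were Igkv1-117 and Igkv1-110 (2.18% each), Igkv4-59 (2.06%) and Igkv8-27 (2.02%).

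The gene in first place differed between libraries. Iglv1 led in KO HFD 1, in all 3 WT HFD libraries and in all 3 KO chow libraries. Igkv6-23 led in KO HFD 2 (6.81%) and WT chow 3 (6.10%), Ighv1-26 in WT chow 1 (5.50%) and WT chow 2 (4.93%), and Ighv1-15 in KO HFD 3 (7.60%). Ighv1-15 was at 3.30% and 2.37% in the other KO HFD libraries and at 0.329% in WT HFD 1, a range within the 2 HFD groups wider than in chow, where it lay between 1.13% and 2.26%.

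**Figure D3:**
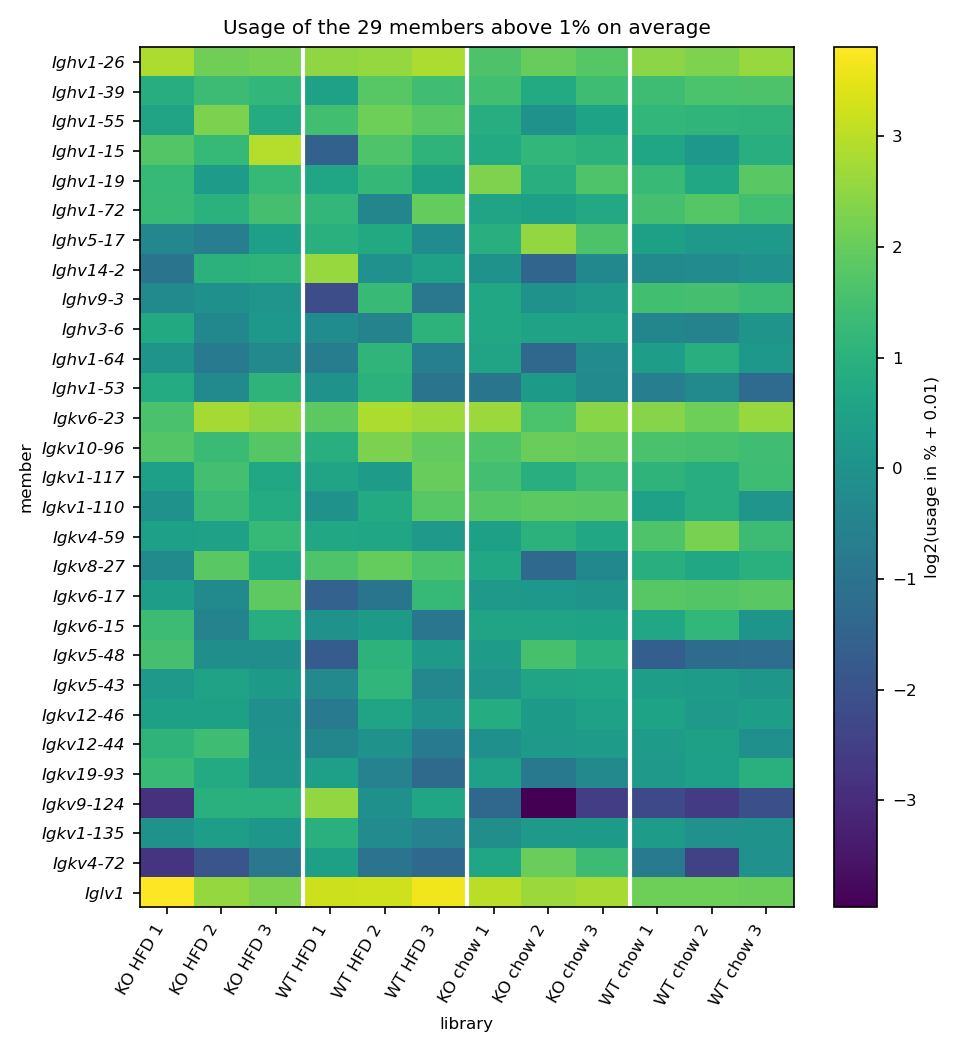
Usage of the 29 V genes above 1% on average (rows, heavy chain above, kappa next, Iglv1 last) in the 12 libraries (columns, groups parted by white lines), coloured by log2 of the percentage plus 0.01. Iglv1 is brightest in KO HFD 1 (14.0%) and the WT HFD libraries, and Igkv9-124 and Ighv14-2 are bright together in WT HFD 1 (5.87% and 6.12%).

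Single libraries of the HFD groups held genes at levels not seen elsewhere. For 17 V genes the highest library was at least 2 times the second highest: 7 of these peaks were in WT HFD 1, 3 each in KO HFD 1 and KO HFD 3, 2 in KO chow 2, 1 each in WT HFD 2 and WT HFD 3, and none in WT chow. In chow a gene high in 1 library is also raised in KO chow 3 or WT chow 1, each close to a mix. Such a peak was therefore harder to reach in chow, and peaks were not counted without these libraries. The counts of peaks thus do not set the HFD groups apart from chow. Ighv14-2 took 6.12%, 0.965% and 1.40% in WT HFD against 0.838%, 0.848% and 0.964% in WT chow. Igkv9-124 took 5.87%, 0.957% and 1.51% in WT HFD against 0.202%, 0.157% and 0.231% in WT chow. WT HFD 1 also held Ighv10-3 at 3.41% and Igkv8-24 at 2.58%, where no other library exceeded 0.590% and 0.479%.

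Ighv14-2 and Igkv9-124 had near-equal counts in 5 of the 6 HFD libraries. The ratio of Ighv14-2 to Igkv9-124 was 1.04 and 1.08 in KO HFD 2 and 3 and 1.04, 1.01 and 0.927 in WT HFD, but 3.97 in KO HFD 1, 2.58 to 6.70 in KO chow and 4.15 to 5.40 in WT chow. In counts, the near-equal libraries held 149 to 1117 of Ighv14-2 and 148 to 1071 of Igkv9-124. The pair was singled out after its values were seen, a bulk library cannot show whether the same cells held both, and each gene has a near copy (Ighv14-1 at 97.0% and Igkv9-120 at 96.0% identity).

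By V family, Ighv1, the largest mouse family, held 38 of the 139 genes and took 33.5%, 30.8% and 33.9% of V counts in KO HFD, 25.1%, 31.8% and 32.5% in WT HFD, 27.3%, 25.5% and 26.3% in KO chow and 30.7%, 31.4% and 31.6% in WT chow. KO chow lay below both KO HFD and WT chow. Ighv5 took 5.67%, 9.32% and 6.52% in KO chow against 3.44%, 3.35% and 3.02% in WT chow, and 2.84% to 3.92% in KO HFD. Igkv4, with 17 genes, took 4.55%, 6.13% and 7.18% in KO HFD and 6.58%, 6.33% and 4.01% in WT HFD, against 8.27%, 8.97% and 8.43% in KO chow and 9.95%, 10.7% and 9.27% in WT chow.

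Position in the locus was described by the genes nearest the constant region. The 70 heavy chain genes span 2.41 Mb of chromosome 12 on the minus strand, and the 35 nearest to Ighm took 28.1%, 31.3% and 32.5% of heavy chain V counts in KO HFD, 43.8%, 29.7% and 27.3% in WT HFD, 35.7%, 47.2% and 40.3% in KO chow and 38.6%, 38.7% and 35.9% in WT chow. Every KO HFD library lay below every KO chow library, whereas WT HFD 1 lay above and WT HFD 2 and 3 below all WT chow libraries. The 66 kappa genes span 3.14 Mb of chromosome 6, 23 of them on the plus strand, and the 23 took 30.5%, 29.2% and 34.0% of kappa counts in KO HFD, 23.0%, 20.3% and 37.2% in WT HFD, 30.6% to 32.6% in KO chow and 30.4% to 32.5% in WT chow.

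Libraries of WT chow resembled each other more than libraries of an HFD group did, and libraries of KO chow did so only in the pairs with KO chow 3. Pearson's r of log2 usage across the 139 genes, a description over genes that are not independent, was 0.705 to 0.755 within KO HFD, 0.704 to 0.736 within WT HFD, 0.663 to 0.870 within KO chow and 0.861 to 0.945 within WT chow, against 0.439 to 0.810 (median 0.637) for the 54 pairs of different groups. KO chow 1 and KO chow 2, the pair without KO chow 3, had r = 0.663, below every pair within an HFD group, and WT chow 2 and WT chow 3, the pair without WT chow 1, had r = 0.861. The closest library of each of the 6 chow libraries was in its own group, but without KO chow 3 and WT chow 1 the closest to KO chow 1 was WT HFD 2 (r = 0.773). All 3 KO HFD libraries were closest to a WT HFD library, and WT HFD 2 and WT HFD 3 were closest to a KO HFD library.

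**Figure D4:**
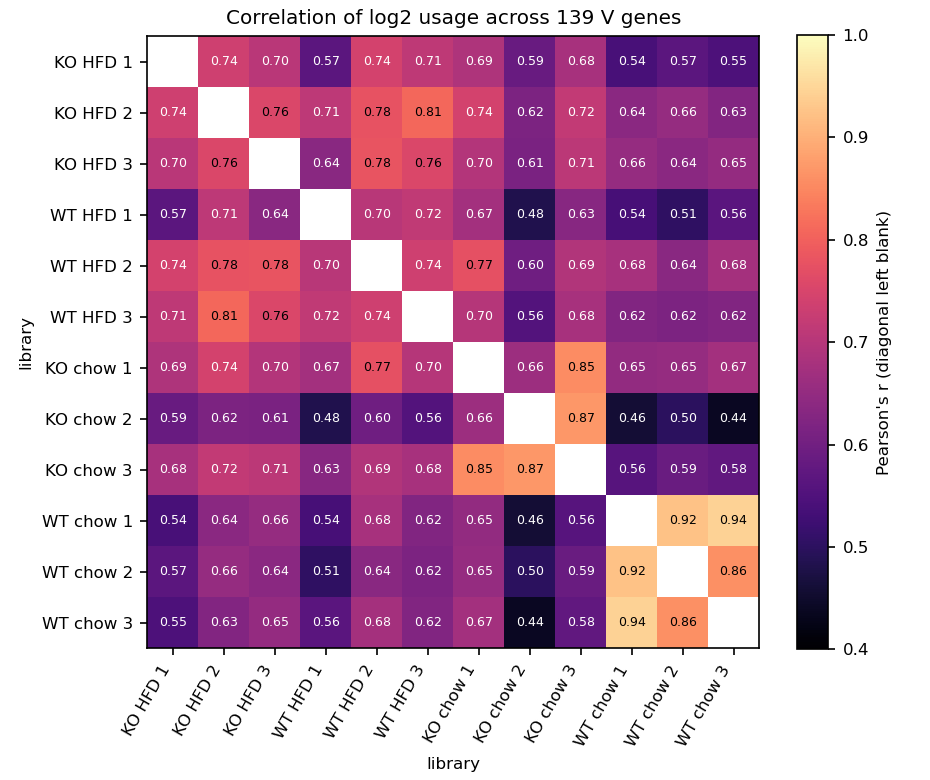
Pearson's r of log2 usage (percentage plus 0.01) across 139 V genes for each pair of libraries, ordered by group. The WT chow block is the brightest (0.861 to 0.945); within the HFD groups r is 0.704 to 0.755, inside the range of pairs from different groups (0.439 to 0.810).

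Levels were compared between groups with edgeR's quasi-likelihood test on all 17602 genes that passed a filter on low counts, 137 of the V genes among them, with Benjamini-Hochberg adjustment over all genes and a threshold of 0.05. A gene called here differed in its share of the whole library's counts, not of V counts.

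KO was set against WT on chow to ask what loss of Ppara went with on the ordinary diet. Of the 137 V genes tested 7 were called (5.11%), 2 higher and 5 lower in KO chow, against 0.125% of all genes tested, 0.0795% higher and 0.0454% lower; the median log2 fold change was -0.23 for the V genes and 0.00 for all genes. Of the 7 calls counted in the 5.11%, 3 were on genes that passed the count minimum through 1 group alone (Igkv12-38, Ighv2-4 and Igkv1-99), and 4 on other genes. CPM of the groups did not overlap for 58 of the 137 (42.3%), against 22.1% of all genes; without KO chow 3 and WT chow 1, an alternative chosen after seeing the data, it did not for 62 (45.3%), against 35.3% of all genes. EdgeR made 0 V gene calls without WT chow 1, without KO chow 3 and without both, where the adjusted p of the 7 genes was 0.082 to 0.25, 0.076 to 0.27 and 0.45 to 0.82. An unadjusted p under 0.05 was reached by 33, 37 and 25 V genes in these fits, against 43 with all libraries, where DESeq2 called 16. The matching shares of all genes are not given here, so these counts do not set the V genes apart. All 7 fold changes kept their sign in these fits, which hold fewer libraries by construction; Igkv1-99 moved most, to 6.13 without WT chow 1, against 4.83 with all libraries on the log2 scale. There were 13 calls without KO chow 1, 3 without KO chow 2 and 4 without KO HFD 2.

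Igkv12-38 counted 2, 0 and 0 reads in KO chow against 62, 42 and 60 in WT chow. Its pooled share of V counts was 58.8 times higher in WT chow (95% exact interval 16.0 to 489). The exact intervals here and below treat pooled reads as independent. They cover counting error only, not the spread between libraries. The 6 HFD libraries held 0 to 5 reads, and WT chow is the group through which Igkv12-38 passed the count minimum. Ighv2-4 had the same pattern, with a usage of 0.0233%, 0% and 0.0241% in KO chow against 0.552%, 0.424% and 0.475% in WT chow, through which it passed the minimum, while its near copy Ighv2-2 stayed between 0.339% and 1.01% in all libraries. A count of 0 in KO chow 2 allows a usage of up to 0.0320% (3 counts).

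Ighv1-22 was higher in KO chow. Its usage was 0.776%, 1.10% and 1.01% in KO chow against 0.215%, 0.134% and 0.318% in WT chow, with no overlap, and its log2 fold change was 1.84 (SE 0.24, edgeR adjusted p = 0.0071). Igkv1-99 was at 0.176%, 1.13% and 0.724% in KO chow against 0.0391%, 0.00787% and 0.00557% in WT chow, and passed the minimum through KO chow; KO chow 1, the lowest, was still above every WT library. Igkv4-50 (-3.47, adjusted p = 0.019), Ighv1-80 (-2.12) and Ighv14-1 (-2.55, adjusted p = 0.049 each in edgeR) were lower in KO chow. Ighv1-80 took 0.268%, 0.330% and 0.351% in KO chow against 1.19%, 1.29% and 0.997% in WT chow.

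**Figure D5:**
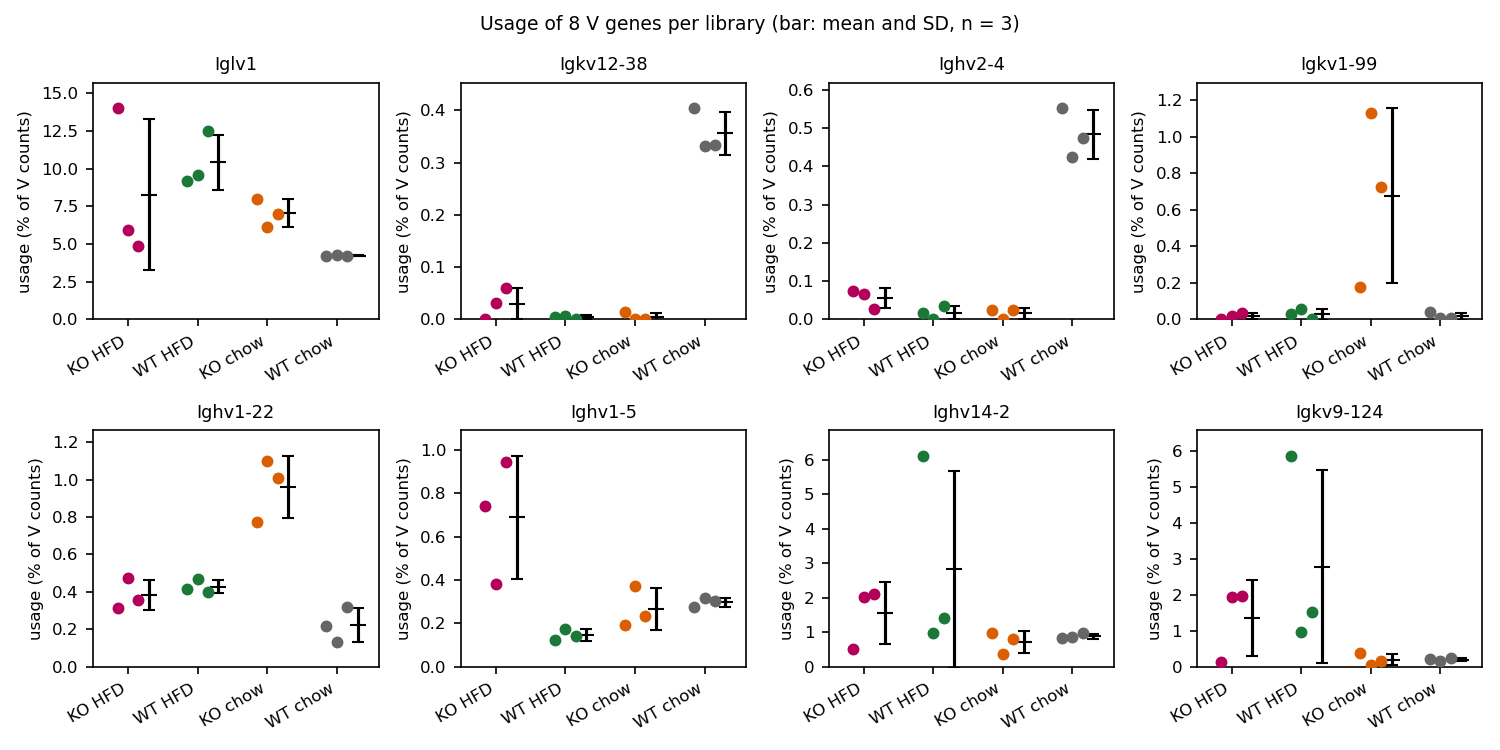
Usage (% of V counts) of 8 V genes in each library (points), with group means and SD (bars, n = 3; bars stop at 0). Igkv12-38 and Ighv2-4 are prominent in WT chow alone, Ighv1-22 is highest in KO chow (0.776% to 1.10%), and Ighv14-2 and Igkv9-124 reach 6.12% and 5.87% in WT HFD 1.

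KO was set against WT on HFD to ask the same on the high-fat diet. Of the 137 V genes 1 was called, higher (0.73%), against 0.29% of all genes, 0.102% higher and 0.187% lower; CPM of the groups did not overlap for 12 (8.76%), against 18.0% of all genes. The call was Ighv1-5, higher in KO HFD with a usage of 0.742%, 0.380% and 0.943% against 0.121%, 0.175% and 0.141% in WT HFD (log2 fold change 1.79, SE 0.32, edgeR adjusted p = 0.033). It was kept in 4 of the 12 fits that left out a library, and lost without any single WT chow or WT HFD library, without KO chow 3 and without KO HFD 1. Ighv1-5 has no copy above 86.2% identity among the 139. An unadjusted p under 0.05 was reached by 19 V genes in this comparison, again without the share of all genes beside it.

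HFD was set against chow in WT to describe the diet difference with Ppara intact. Of the 137 V genes 19 were called (13.9%), Igkv12-38 and Ighv2-4 among them, 5 higher and 14 lower in WT HFD, against 13.4% of all genes, 6.8% higher and 6.57% lower; CPM of the groups did not overlap for 43 (31.4%), against 37.9% of all genes, and without KO chow 3 and WT chow 1 for 47 (34.3%), against 43.6% of all genes. The median log2 fold change was 0.14 for the V genes. There were 10 calls without WT chow 1, 12 without WT chow 2 and 5 without both WT chow 1 and KO chow 3. The V genes' share of calls was near that of all genes.

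Igkv12-38, at 1, 1 and 0 reads in WT HFD, was 89.2 times higher as a pooled share of V counts in WT chow (95% exact interval 24.3 to 742). Ighv2-4 fell to 0.0169%, 0% and 0.0346% in WT HFD, against 0.552%, 0.424% and 0.475% in WT chow (log2 fold change -4.41, SE 0.59). Both lay far below every WT chow library, as in KO chow, and both passed the count minimum through WT chow alone.

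Ighv3-1 fell to 0.104%, 0.246% and 0.221% in WT HFD, against 1.29%, 1.44% and 1.28% in WT chow (-2.56, SE 0.48, edgeR adjusted p = 0.0069). Igkv4-91 fell to 0.334%, 0.246% and 0.233% in WT HFD, against 1.36%, 1.81% and 0.763% in WT chow (-1.99, adjusted p = 0.0046). Of the Igkv4 family Igkv4-70 (-1.98, adjusted p = 0.0098) and Igkv4-59 (-1.03, adjusted p = 0.014) also fell, as did Igkv6-32 (-0.99, adjusted p = 0.012). Ighv1-22 rose in WT, with a usage of 0.417%, 0.467% and 0.400% in WT HFD against 0.215%, 0.134% and 0.318% in WT chow (1.20, SE 0.24, adjusted p = 0.0065). Ighv10-3 (4.14, adjusted p = 0.017) and Igkv9-124 (4.15, adjusted p = 0.042) were also called higher, in 9 and 4 of the 12 fits that left out a library. Without WT HFD 1, where both were highest, the log2 fold change was 2.63 for Ighv10-3 (SE 0.44, edgeR adjusted p = 0.0036) and 2.88 for Igkv9-124 (SE 0.96, adjusted p = 0.087), which was no longer called.

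HFD was set against chow in KO for the same question without epithelial Ppara. Of the 137 V genes 9 were called (6.57%), Igkv1-99 among them, 3 higher and 6 lower in KO HFD, against 8.2% of all genes, 3.44% higher and 4.76% lower; CPM of the groups did not overlap for 24 (17.5%), against 25.8% of all genes, and without KO chow 3 and WT chow 1 for 26 (19.0%), against 30.6% of all genes. Without WT chow 1 and KO chow 3 there were 2 calls, Igkv14-100 and Igkv1-99. The median log2 fold change was 0.02.

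Igkv14-100 fell in both genotypes. Its usage was 0.0840%, 0.164% and 0.155% in KO HFD against 0.367%, 0.554% and 0.362% in KO chow (log2 fold change -1.67, SE 0.30, edgeR adjusted p = 0.0054), and 0.0548%, 0.123% and 0.110% in WT HFD against 0.209%, 0.276% and 0.329% in WT chow (-1.24, SE 0.30, adjusted p = 0.016). It was the only V gene called lower with HFD in both genotypes, and both calls held without WT chow 1 and KO chow 3.

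Igkv1-99 counted 0, 2 and 3 reads in KO HFD against 25, 106 and 68 in KO chow, a pooled share of V counts 39.1 times higher in KO chow (95% exact interval 16.5 to 122); KO chow is the group through which it passed the count minimum. Ighv5-17 fell to 0.770%, 0.637% and 1.33% in KO HFD, against 1.85%, 5.78% and 3.13% in KO chow (-1.88, SE 0.35, adjusted p = 0.011), and Igkv4-72 to 0.133%, 0.257% and 0.537% in KO HFD, against 1.52%, 4.09% and 2.58% in KO chow (-3.16, adjusted p = 0.027). In both, KO chow 2 was the highest library of all 12. Igkv1-88 also fell (-2.30, adjusted p = 0.0077), with 22 reads in KO HFD against 114 in KO chow. Its level in WT HFD was like that in KO HFD (log2 fold change 0.04, SE 0.52). It passed the count minimum through chow, so this fall is a description and supports nothing.

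Of the higher genes, Ighv1-5 took 0.742%, 0.380% and 0.943% in KO HFD against 0.190%, 0.373% and 0.234% in KO chow (1.46, SE 0.32, edgeR adjusted p = 0.013). Ighv1-77 counted 1 read in all of KO chow and 49 in KO HFD. Its pooled share was 49.9 times higher in KO HFD (95% exact interval 8.54 to 2010, edgeR adjusted p = 0.012). It was called higher with HFD in WT as well (adjusted p = 0.017 in edgeR), with 70 reads in WT HFD against 10 in WT chow. Ighv1-77 reached a mean count of 10 in the HFD groups alone, so these differences are descriptions and support nothing. The third, Ighv1-71, is one of the pair with identical V exons.

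Whether the diet difference itself depended on genotype was tested by the interaction. Of all 17602 genes 1 was called (0.00568%), and it was the V gene Ighv1-22, with a difference of -2.49 between the log2 fold changes of diet in KO and in WT (SE 0.34, edgeR adjusted p = 0.046). In CPM Ighv1-22 was at 1.25, 1.29 and 0.917 in KO HFD against 2.93, 2.71 and 2.87 in KO chow, which edgeR called lower (-1.29 on the log2 scale, SE 0.24, adjusted p = 0.0058), and at 1.89, 1.79 and 1.78 in WT HFD against 0.753, 0.492 and 1.08 in WT chow. KO chow lay above every other library, and WT chow lay below WT HFD but overlapped KO HFD. The difference ran between -2.82 and -2.26 in the 12 fits that left out a library and was called in 5 of them; it was lost without WT chow 1, WT chow 2, KO chow 2, KO chow 3, WT HFD 2, KO HFD 1 or KO HFD 2. An unadjusted p under 0.05 was reached by 34 of the 137 V genes, again without the share of all genes beside it.

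Of the 139 genes, Ighv1-18 and Ighv1-34 are equally near to Ighv1-22, each with 10 differing bases. The V exons of Ighv1-22 and Ighv1-18 are shown for how little sequence parts such copies. Both exons are 305 bases long and lie on the minus strand of chromosome 12; the last 240 bases are printed, and capitals mark the 10 bases that differ (96.7% identity over the exon).

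Ighv1-22, chr12:114746273-114746512: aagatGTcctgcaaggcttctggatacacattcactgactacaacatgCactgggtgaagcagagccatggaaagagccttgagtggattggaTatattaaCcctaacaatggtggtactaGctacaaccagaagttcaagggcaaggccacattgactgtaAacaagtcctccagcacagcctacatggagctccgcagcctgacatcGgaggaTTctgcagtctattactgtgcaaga
Ighv1-18, chr12:114682632-114682871: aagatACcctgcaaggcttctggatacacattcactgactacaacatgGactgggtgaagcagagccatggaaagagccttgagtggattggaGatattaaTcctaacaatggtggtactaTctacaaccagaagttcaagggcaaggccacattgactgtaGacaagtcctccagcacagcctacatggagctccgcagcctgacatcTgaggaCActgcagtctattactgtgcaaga

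The counts of Ighv1-22 were not whole in 1 library. Ighv1-18 took 0.294%, 0.576% and 0.349% in KO HFD, 0.198%, 1.54% and 0.257% in WT HFD, 0.116%, 0.960% and 0.472% in KO chow and 0.447%, 0.221% and 0.522% in WT chow, and in each genotype its HFD and chow libraries overlapped. Ighv1-34, whose counts were not whole in any of the 12 libraries, took 1.99%, 0.432% and 0.159% in KO HFD, 0.0278%, 0.0658% and 0.0671% in WT HFD, 0.267%, 0.355% and 0.278% in KO chow and 0.0993%, 0.120% and 0.0842% in WT chow. KO lay above WT on both diets without overlap, but edgeR called it neither between the HFD groups (3.81 on the log2 scale, adjusted p = 0.18), where DESeq2 did, nor in the interaction (2.46, SE 1.45, adjusted p = 0.86). The part of read division among these copies in the difference of Ighv1-22 was not tested.

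The 5 comparisons made 37 calls on 25 V genes. Of the 37, 11 were made in every one of the 12 fits that left out a library, and 7 were also made without WT chow 1 and KO chow 3: Igkv12-38, Ighv2-4, Igkv4-91, Ighv3-1 and Igkv14-100 lower with HFD in WT, and Igkv14-100 and Igkv1-99 lower with HFD in KO. Of the 11 and of the 7, 3 each were on genes that passed the count minimum through 1 chow group alone (Igkv12-38, Ighv2-4 and Igkv1-99), which leaves 8 and 4 on other genes. The 8 still include the fall of Igkv1-88 with HFD in KO. That gene passed the minimum through chow, so its call is a description. None of the 7 calls between KO chow and WT chow was among them. The comparisons share libraries, so that a gene high in WT chow alone, such as Igkv12-38, is counted both between genotypes and between diets.

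Genes of the cells that make and carry antibody were read beside the V genes. The summed level of 12 plasma cell markers was 697 to 812 CPM in KO HFD, 799 to 862 in WT HFD, 750 to 854 in KO chow and 861 to 876 in WT chow; Txndc5, Sdc1, Jchain and Xbp1 made up 94.8% of it on average, and Sdc1, Xbp1 and Txndc5 are also made by other cells, such as epithelium. Mzb1 and Tnfrsf17, more particular to the B lineage, were at 3.09 to 5.87 CPM and 0.153 to 0.600 CPM. Of the 12, 2 were lower with HFD in KO and 1 in WT, Sdc1, the plasma cell surface proteoglycan CD138, in both (log2 fold change -0.36, adjusted p = 0.031 in KO and -0.32, adjusted p = 0.037 in WT, edgeR). Of all genes tested, 8.2% were called with HFD in KO and 13.4% in WT. For this list and those below, the counts are descriptions and do not set a list apart. Their counts at an unadjusted p under 0.05 have no share of all genes beside them. Igha, the IgA heavy chain constant gene, averaged 816 ± 261 CPM in KO HFD and 1154.7 ± 69.4 CPM in WT HFD (log2 fold change -0.50, adjusted p = 0.22), and 759 ± 54.8 CPM in KO chow and 931 ± 11.5 CPM in WT chow (SD, n = 3 each; -0.29, adjusted p = 0.45). Jchain, which joins IgA dimers, averaged 168 ± 47.7, 237 ± 21.3, 164 ± 30.4 and 190 ± 5.89 CPM in the order KO HFD, WT HFD, KO chow and WT chow, and no call was made on it.

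B cell markers, which bulk RNA does not tie to lymphoid follicles or to scattered cells, moved with single libraries. Their sum over 12 genes was 130, 243 and 103 CPM in KO HFD, 187, 87.9 and 115 CPM in WT HFD, 84.7 to 102 CPM in KO chow and 103 to 131 CPM in WT chow, with none of the 12 at 0 throughout. EdgeR called 0 of them in any comparison, with 7 of 12 at an unadjusted p under 0.05 for HFD against chow in KO, where DESeq2 called 3. KO HFD 2 and WT HFD 1 were the high libraries, and WT HFD 1 is the library with the peaks of Ighv14-2 and Igkv9-124. Of the 17 genes whose highest library was at least 2 times the second, 7 peaked in WT HFD 1 and 0 in KO HFD 2. KO HFD 1 and KO HFD 3, lower in B cell markers, held 3 each. The part of B cell content in these peaks was not tested. Smooth muscle markers (6 genes) summed to 74.8 to 98.6 CPM in KO HFD and 24.5 to 58.4 CPM in WT HFD, against 34.8 to 53.3 in KO chow and 52.7 to 53.9 in WT chow, with 1 of 6 called (Myh11, higher with HFD in KO). For KO against WT on HFD all 6 had an unadjusted p under 0.05 (median log2 fold change 1.18), edgeR called 0 and DESeq2 called 4. The part of tissue makeup in the V gene differences was not tested.

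A chemokine and a survival factor of the IgA system fell with HFD in both genotypes. Ccl28, an epithelial chemokine for IgA plasma cells, changed by -0.76 log2 in KO (SE 0.18, adjusted p = 0.026) and by -0.94 in WT (SE 0.18, adjusted p = 0.0075, edgeR). Tnfsf13, which encodes the plasma cell survival factor APRIL, changed by -1.08 in KO (SE 0.17, adjusted p = 0.0027) and -1.04 in WT (SE 0.17, adjusted p = 0.0020). They belong to a list of 15 tested homing and follicle genes, of which 2 were lower with HFD in WT, where 13.4% of all genes were called. With HFD in KO, where 8.2% of all genes were called, 2 were lower and 1, the integrin gene Itga4, higher (0.69, adjusted p = 0.020). Pigr, the epithelial receptor that carries IgA into the gut lumen, fell with HFD in WT (-0.58, adjusted p = 0.0093), 1 of 3 genes of IgA assembly and transport. Of 7 germinal centre markers, Bcl6 (0.46, adjusted p = 0.030) and Gcsam (1.15, adjusted p = 0.019) rose and Fas fell (-0.58, adjusted p = 0.011) with HFD in KO, and Fas fell in WT (-0.59, adjusted p = 0.0062). Of 8 tested V(D)J recombination genes edgeR and DESeq2 called 0 in each comparison, with at most 2 at an unadjusted p under 0.05 (KO against WT on chow), and Rag2 and Igll1, needed while B cells form, were listed at 0 in all 12 libraries. With HFD in both genotypes 1 of 6 epithelial markers was higher (Fabp2) and 1 lower (Krt8), and 1 of 3 blood markers was lower in WT (Hba-a1); edgeR called 0 of 8 T cell and 0 of 5 myeloid markers in each comparison, although 7 T cell markers had an unadjusted p under 0.05 for KO against WT on chow (median log2 fold change -0.52), where DESeq2 called 1, and 3 myeloid markers for KO against WT on HFD, where DESeq2 called 1. No gene of these lists was called by edgeR between genotypes on either diet.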

How the data were processed

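The values are expected counts as the authors deposited them, 1 per gene and library, unscaled. RSEM, STAR, Trimmomatic and Picard, with build mm10, are named per the submitters' processing notes, without versions or roles; the library kit was stranded, per the labels' protocols. Which annotation release and strand setting were used is not given in the sources used here, and a V gene and an antisense partner may share reads. Gene IDs were matched to GENCODE vM21, which may not be the authors' release (47224 matched).

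Expected counts were rounded and tested with edgeR 4.0.16 in R 4.3.3 (quasi-likelihood F test, TMM factors, filterByExpr defaults), with all 12 libraries in 1 fit of 4 group means and Benjamini-Hochberg adjustment within each contrast. CPM uses TMM-scaled totals. Usage shares, effective numbers and correlations (log2 of the percentage plus 0.01) are descriptions. The test was also run on simulated data with known changes. Tables and figures were made with Python 3.11.15, pandas 2.3.3 and matplotlib 3.10.9, and V exons were aligned with Biopython 1.88.

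The V genes, the gene lists and the tests were chosen with earlier results of these data known. Named were the 6 most used heavy and kappa genes and every lambda gene, the first gene of each library, up to 8 called genes per comparison by p, the 6 with the largest gap between the highest and the second library, the genes next to the count minimum and the constant region genes, Jchain, Ppara and up to 3 called genes per list and comparison; other names are marked or complete a count. Alternatives were DESeq2 1.42.0 (its size factors in edgeR, or its Wald test), the V total as a covariate, a block for the replicate number, fits of only the compared groups, leaving out libraries, no filter or one of 50 counts in 3 libraries, and member minimums of 1 and 50.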

Additional observations from a re-analysis of the deposited data

Results flagged for a closer look

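Ighv1-22 was flagged because the diet difference was opposite in the 2 genotypes and the interaction passed the test, with a difference of -2.49 on the log2 scale. Its usage was 0.315%, 0.472% and 0.358% in KO HFD against 0.776%, 1.10% and 1.01% in KO chow, and 0.417%, 0.467% and 0.400% in WT HFD against 0.215%, 0.134% and 0.318% in WT chow. Without both WT chow 1 and KO chow 3 the difference was -2.46 and was no longer called; the smaller number of libraries enters that fit by construction.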

How the results depend on the processing

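V gene calls numbered 7 (KO against WT on chow), 1 (KO against WT on HFD), 19 (HFD against chow in WT), 9 (HFD against chow in KO) and 1 (interaction). With DESeq2's Wald test these were 16 and 5 between genotypes on chow and HFD and 10 for the interaction. The share of all genes called is given for the main fit alone. Counts under the other settings therefore do not set the V genes apart from other genes. Of the 37 calls, DESeq2 gave no adjusted p for 11 and called the other 26. Using only the groups compared gave 18 on chow and 0 on HFD, and the V total as a covariate gave 4, 2 and, for the interaction, 3. The interaction count was 3 with no filter and 0 with the filter of 50 counts, which left 5 calls for HFD against chow in KO. Without WT chow 1 and KO chow 3, calls numbered 0, 0, 5, 2 and 0 in the order above. Leaving out 1 library at a time gave 0 to 13, 0 to 3, 10 to 23, 6 to 12 and 0 to 3 calls. With the replicate number as a block, calls numbered 5, 0, 17, 9 and 0. Same-numbered libraries of different groups had correlations of -0.0714 to 0.121 after removal of group means, against -0.175 to 0.151 for differently numbered ones. No pairing by number was seen, though correlations of this kind cannot exclude it. No fold change of a called gene reversed under any of these settings. With a member minimum of 50, heavy effective numbers were 19.6 (KO HFD), 19.6 (WT HFD), 22.6 (KO chow) and 22.2 (WT chow), and kappa ones 24.4, 21.8, 24.4 and 25.7. With a minimum of 1, heavy ones were 31.5 (WT HFD) and 40.6 (KO chow), and kappa ones 36.6 (KO HFD), 37.0 (KO chow) and 39.4 (WT chow). With the minimum of 50, the V total was 382 CPM (WT HFD) and 304 CPM (WT chow), the lambda share 8.91% (WT chow), and the median r 0.665 within KO HFD and 0.562 within WT HFD. The causes were not tested. Depth limits the genes near 0.1% of usage, since 1% is 83.7 to 182 counts.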
